A study of Mus musculus with 6 samples.

Results

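The lipoprotein lipase axis is the set of proteins by which the heart draws fatty acids from circulating triglyceride. Angptl4, Lpl, Gpihbp1, Lmf1, Vldlr, Lrp1 and Cd36 were taken by name, which gave 7 genes of the 12946 tested, and 18 of the 45099 probe sets on the array carried one of these symbols alone. They were measured in whole hearts of 3 wild-type (WT) mice and 3 mice that the labels call null (KO) for estrogen-related receptor alpha (ERRα, gene Esrra), each heart on its own Affymetrix Mouse430_2 array. All 6 mice were labelled male and kept under basal conditions, with no treatment named, and 5 of them, all except WT 1, were labelled C57BL/6J and aged 2 to 3 months. The labels do not say how the null allele was made. A comment in the array header of WT 1 gives it another WT number than its title, and the title was followed. In heart tissue as a whole, fewer cells of a type and less RNA per cell cannot be told apart.

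In the heart, lipoprotein lipase is made mainly by cardiomyocytes, folded in the endoplasmic reticulum with the help of lipase maturation factor 1 (Lmf1), and carried to the capillary lumen by GPIHBP1, an anchor on endothelial cells. There it releases fatty acids from very low density lipoproteins and chylomicrons, and ANGPTL4, a secreted protein induced by fasting and by PPAR nuclear receptors, inactivates it. The freed fatty acids enter cells with the help of the scavenger receptor CD36, while the VLDL receptor and LRP1 bind lipoprotein particles and their remnants. ERRα is an orphan nuclear receptor of tissues with high energy use and acts with PGC-1 coactivators on genes of fatty acid oxidation.

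Esrra was read first. Its brighter probe set gave a signal of 368.1, 394.4 and 349.1 in WT 1 to 3, and of 180.1, 24 and 18 in the libraries labelled KO 1 to 3. The difference passed the test described below (limma adjusted p = 3.8e-09). The library labelled KO 1 kept 48.6% of the WT mean, against its label, and directions below include it unless its omission is stated. The median signal per array ran from 12.4 to 16, with WT 1 the brightest. Values are signals on a linear scale, and differences are KO minus WT on log2(signal + 16), which understates the change of dim genes. They were tested across all genes with limma, with Benjamini-Hochberg adjusted p and a threshold of 0.05. By rank alone, 3 hearts against 3 cannot give an exact two-sided p below 0.1. The labels do not say more of how the hearts of a group relate than that they came from separate mice.

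The comparison of the groups asked which members of the axis differed between hearts labelled WT and KO under basal conditions. The inhibitor gene Angptl4 fell to 0.259 of its WT mean signal, the VLDL receptor gene Vldlr fell, and the receptor gene Lrp1 rose. The genes for the lipase, its maturation factor, its anchor and the fatty acid transporter did not pass the test. Of the 7 genes 2 were called lower and 1 higher, against 1.18% lower and 1.78% higher of all 12946 genes. The KO hearts lay below all WT hearts for 2 of the 7 and above them for 1, against 9.41% and 6.81% of all genes. The median difference was -0.13 over the 7 genes and -0.028 over all genes, and 6 of the 7 differences were negative against 55% of all genes. The members were chosen with earlier results of these data known, so these comparisons with all genes are a description. The counts of 2 and 1 were the same without the library labelled KO 1, and were 1 and 0 without WT 1 or without KO 3, and 2 and 0 without WT 2 or without KO 2.

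**Figure D1:**
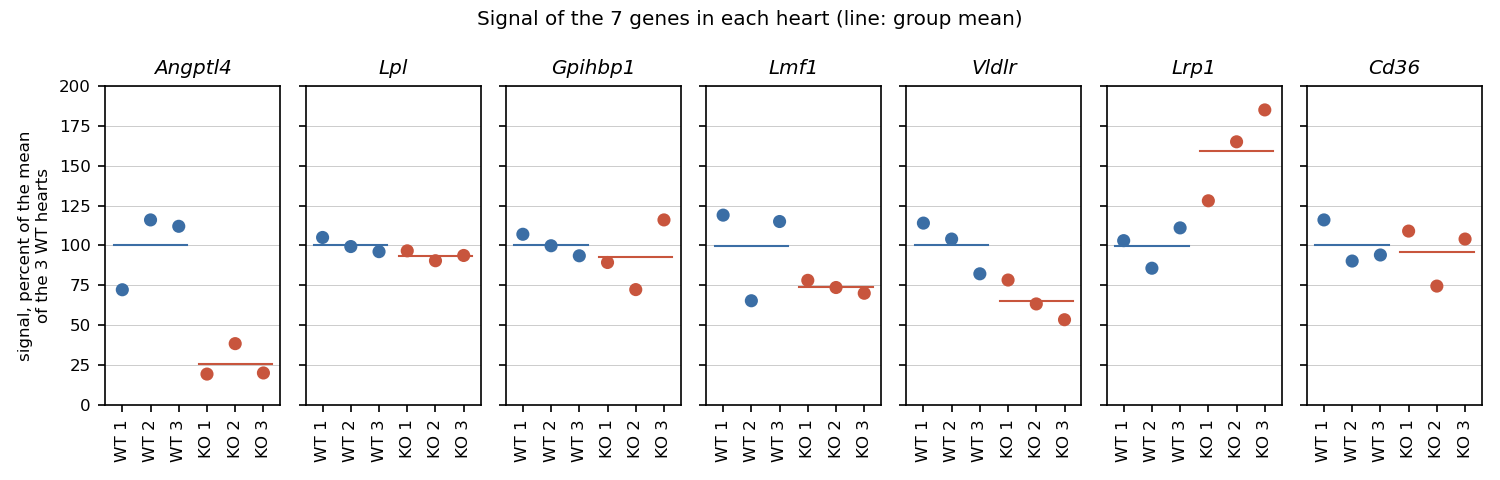
Signal of each of the 7 genes in each heart, as percent of the mean of the 3 WT hearts (vertical axis); each point is 1 heart, blue for WT and red for KO, and lines are group means. Angptl4 lies at 19.3 to 38.4% in the KO hearts, Vldlr at 53.4 to 78.3% and Lrp1 at 128 to 185%, while the groups of the other 4 genes overlap.

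Angptl4 gave signals of 130, 209 and 201.4 in WT 1 to 3, but of 34.7, 69.2 and 36 in the libraries labelled KO 1 to 3. Every KO heart lay below every WT heart, and the highest KO value came from KO 2. The group means were 180.1 ± 43.6 and 46.6 ± 19.6 (SD, n = 3 each), a 3.86-fold lower mean in KO. The log2 difference was -1.66 (SE 0.19, 95% interval -2.05 to -1.28; limma adjusted p = 9.8e-09), the seventh lowest of all genes. The library labelled KO 1, which kept the most Esrra signal of the 3, had the lowest Angptl4 signal, at 19.3% of the WT mean. Without KO 1 the difference was -1.53 and without WT 1 it was -1.86, and both passed the test (limma adjusted p = 3.56e-11 and 0.0085). The variance shared between genes was estimated anew in each fit, so p-values with different hearts left out cannot be compared. The Angptl4 value rests on 1 probe set, whose suffix marks probes shared between transcripts. The other Angptl4 probe set was too dim to be tested, with signals of 0.6 to 1.7 across the WT hearts against 1.5, 8.5 and 6.9 in KO 1 to 3.

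Lpl, the gene of the lipase itself, gave 8468.4, 8030.5 and 7771.6 across the WT hearts against 7811.7, 7315.1 and 7581 in KO 1 to 3. KO 1 lay between the WT values, and the others lay just below them. The difference was -0.10 (SE 0.09; limma adjusted p = 0.768), with a 95% interval that reaches from 82.2 to 107% of WT on this scale. The Lpl signal was higher than that of 99.9% of genes, in arrays whose brightest probe sets read 9747.7 to 10889.5, and how far the scale compresses there was not tested. A dimmer Lpl probe set gave 5191.7, 4296.2 and 4514.9 across the WT hearts against 4381.5, 4306.4 and 4504.6 in KO. The groups overlapped there too, and the difference was -0.08 (SE 0.11).

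Lmf1, the maturation factor, gave 97.7, 53.4 and 94.4 across the WT hearts against 63.9, 60.2 and 57.3 in KO. WT 2 was the lowest of all 6 hearts, so the groups overlapped although WT 1 and WT 3 stood above every KO heart. The difference was -0.32 (SE 0.18, 95% interval -0.69 to 0.04) and did not pass (limma adjusted p = 0.494). Its size rested on the WT hearts, at -0.55 without WT 2 (adjusted p = 0.159), -0.20 without WT 1 and -0.22 without WT 3 (adjusted p = 0.687 and 0.763). The other Lmf1 probe set read 14.5 or less in every heart and fell under the filter on dim probe sets.

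Gpihbp1, the capillary anchor, gave 666.3, 623.3 and 583.9 across the WT hearts against 557.5, 451.8 and 727.5 in KO. KO 3 was the highest of all hearts and KO 2 the lowest, and the spread was 24% of the mean in KO against 6.6% in WT. The difference was -0.13 (SE 0.16, 95% interval -0.45 to 0.19; limma adjusted p = 0.826), and without KO 2 it turned to 0.03. Of 12 endothelial markers 0 passed by limma, and 1, higher, had an unadjusted p under 0.05. Their summed signal was 3378, 3222 and 4118 in KO 1 to 3 against 3001 to 3848 in WT, highest in KO 3 as for Gpihbp1, and their part in the spread was not tested.

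Upstream sequence was at hand for 2 of the called genes, Vldlr, which fell, and Lrp1, which rose, and is shown so that their proximal promoters can be set side by side. Each run holds the 250 bases before a transcript start in the RefSeq table (GRCm38.p6), 5′ to 3′ on the strand of the gene. The Vldlr run lies at chr19:27216234-27216483 (plus strand) and the Lrp1 run at chr10:127621149-127621398 (minus strand). The window of a second Vldlr start, at chr19:27216770-27217019, was searched but is not printed.

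Vldlr: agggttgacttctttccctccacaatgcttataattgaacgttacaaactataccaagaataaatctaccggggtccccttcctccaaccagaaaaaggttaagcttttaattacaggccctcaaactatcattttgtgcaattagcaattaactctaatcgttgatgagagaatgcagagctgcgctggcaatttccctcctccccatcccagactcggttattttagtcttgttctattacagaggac

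Lrp1: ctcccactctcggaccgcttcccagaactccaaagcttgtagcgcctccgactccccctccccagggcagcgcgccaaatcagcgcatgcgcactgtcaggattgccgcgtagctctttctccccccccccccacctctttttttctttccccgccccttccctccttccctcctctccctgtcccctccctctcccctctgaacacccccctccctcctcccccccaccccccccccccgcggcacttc

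These were searched on both strands for TCAAGGTCA, the extended half-site that ERR receptors bind, for its core AAGGTCA, which lies within it, and for AGGTCANAGGTCA, the direct repeat bound by PPAR with RXR. No match was found, so no base is in capitals, and none was found either in the other 3 windows of the 4 genes matched (Cd36, Lmf1, Lrp1 and Vldlr, 5 starts). Of all 32851 windows of that length 0.387%, 4.08% and 0.0335% held the respective motif. The absence covers these letters in these windows alone. Angptl4, Lpl and Gpihbp1 had no entry in the table.

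Vldlr, the very low density lipoprotein receptor, gave 2631.5, 2384.3 and 1892.6 across the WT hearts against 1803.6, 1456.6 and 1230.6 in KO at its brightest probe set. The KO hearts lay below all WT hearts, with KO 1 close to WT 3. The means were 2303 ± 376 and 1497 ± 289 (SD, n = 3 each), and the difference was -0.62 (SE 0.14; limma adjusted p = 0.00352). It did not pass without WT 1 (-0.52, adjusted p = 0.145) or without KO 3 (-0.49, adjusted p = 0.0808). The brightest probe set carries a suffix for shared probes, and without such sets the gene was read at -0.42 (adjusted p = 0.167).

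Vldlr was the gene with the most probe sets, 6 in all, which read the same hearts and so are not replicates. All 6 had negative differences. In 4 of them the KO hearts lay below all WT hearts, and 2 passed the test over 27022 probe sets. The second to pass gave 855.6, 725 and 606.2 across the WT hearts against 553.6, 419.6 and 447.2 in KO (-0.60, SE 0.16; limma adjusted p = 0.0314). It too carries a suffix for shared probes, and no Vldlr probe set without such a suffix passed (limma adjusted p = 0.102 to 0.318). A probe set that did not pass gave 671.7, 649.8 and 634.7 across the WT hearts against 551.1, 455.2 and 513.4 in KO. It held the groups apart with little spread in WT, at a difference of -0.36 (SE 0.15; adjusted p = 0.318). The dimmest gave 36.8 to 54.4 in WT and 38 to 43.9 in KO, and the groups overlapped.

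Lrp1, a large endocytic receptor for remnant particles and many other ligands, gave 196.6, 163.4 and 212.1 across the WT hearts against 244.3, 314.7 and 353.1 in KO. Every KO heart lay above every WT heart, with KO 1 nearest to WT. The means were 190.7 ± 24.9 and 304 ± 55.2 (SD, n = 3 each), and the difference was 0.62 (SE 0.17; limma adjusted p = 0.0258). Leaving out WT 1, WT 2, KO 2 or KO 3 gave 0.65, 0.52, 0.59 and 0.51, none of which passed (limma adjusted p = 0.0988, 0.168, 0.142 and 0.279), while without KO 1 it was 0.76 and passed. A dim Lrp1 probe set gave 9, 8.1 and 5.3 across the WT hearts against 16.6, 11.3 and 9.9 in KO. The groups lay apart in the same direction, with a difference of 0.28 (SE 0.22) that did not pass. Its WT mean of 7.47 lay under the filter signal of 8.17, so it was tested only through its KO hearts. A higher KO signal was thus favoured there in advance. The summed signal of 6 fibroblast markers was also higher in KO, at 5803 to 6219 against 4467 to 5222 in WT. By limma 0 of the 6 passed, with adjusted p of 0.116 to 0.348, while all 6 had a positive difference with an unadjusted p under 0.05. Their part in the Lrp1 difference was not tested.

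Cd36, the fatty acid transporter and scavenger receptor, gave 3330.2, 2592.7 and 2703.5 across the WT hearts against 3144.6, 2143.1 and 3000.5 in KO at its brightest probe set. The groups overlapped, with WT 1 the highest and KO 2 the lowest heart. The difference was -0.07 (SE 0.13, 95% interval -0.33 to 0.19; limma adjusted p = 0.9), and it was 0.04 without WT 1 and 0.10 without KO 2. At its other probe sets the differences were -0.20 (SE 0.12) and -0.30 (SE 0.15). The last of these read 1108.6, 865.1 and 854.3 across the WT hearts against 950.8, 682.7 and 662.6 in KO, and did not pass (limma adjusted p = 0.482).

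**Figure D2:**
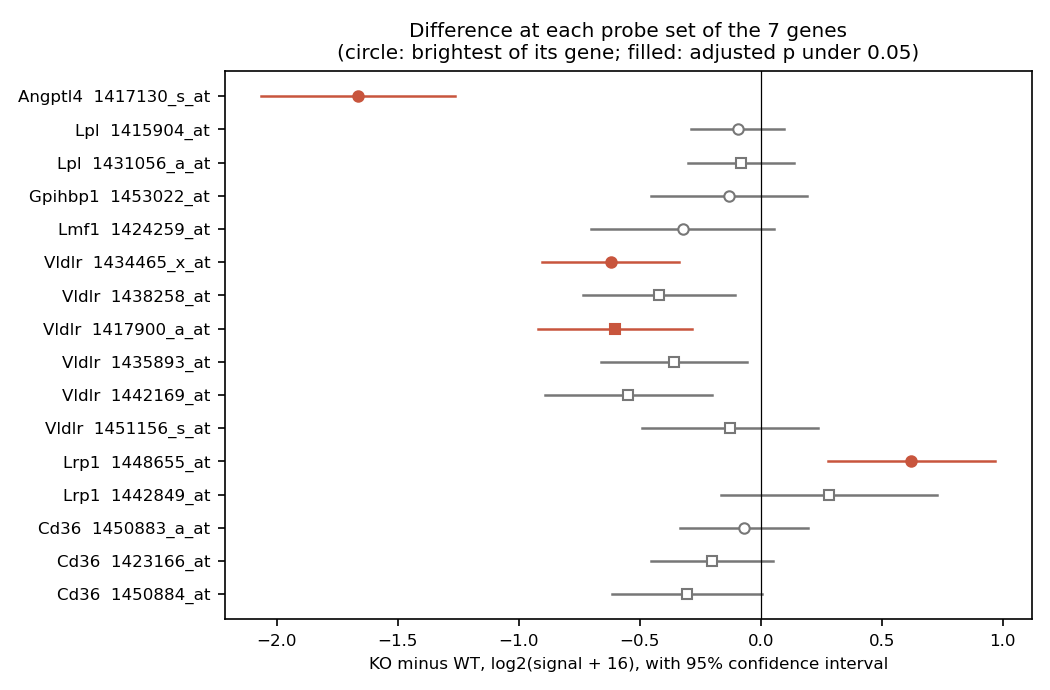
KO minus WT difference on log2(signal + 16) with its 95% interval (horizontal axis) for the 16 of 18 probe sets bright enough to be tested; circles mark the brightest probe set of a gene, squares the others, and filled marks passed the test. Of the 16, 3 were called lower and 1 higher, against 0.736% and 1.2% of all probe sets tested, and all 6 Vldlr probe sets lie left of 0.

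Outside the 7 genes, 62 genes of the pathway were listed by role, of which 48 were tested. Of these 48, 0 were called lower and 1 higher by limma, against 1.18% lower and 1.78% higher of all genes. The median difference was -0.015 against -0.028 over all genes. The share of all genes with an unadjusted p under 0.05 was not counted. Counts at that level, in these lists and among the cell type markers, therefore have no background beside them. A further 7 were too dim to test, with no signal above 18.8, among them the lipase cofactor gene Apoc2, and 7 were not analysed here.

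Of 19 tested lipase relatives, cofactors and genes of maturation and matrix, 1 rose, 0 fell and 18 did not pass by limma (median 0.0036), and 3 higher and 0 lower had an unadjusted p under 0.05. Apoe, the apolipoprotein that directs remnants to their receptors, rose. It gave 996.1, 707.6 and 845 across the WT hearts against 1204.5, 1208.1 and 1647.5 in KO, with all KO hearts above all WT hearts and KO 3 the highest (0.66, SE 0.15; limma adjusted p = 0.00388). Without KO 3 it was 0.51 and did not pass (adjusted p = 0.134). The Apoe value rests on 1 probe set, which carries a suffix for shared probes. Apoc1, an apolipoprotein encoded beside Apoe, was dim, at 2.3 to 7.1 in WT and 13.8 to 21.5 in KO, and had a difference of 0.70 (SE 0.23; limma adjusted p = 0.0952). All its WT signals lay under the filter signal of 8.17, so Apoc1 entered the test only through its KO hearts. A higher KO signal was thus favoured in advance, and its p-values are given as a description. Apoc1 passed with no intensity trend (adjusted p = 0.0491) and with array weights (0.78, adjusted p = 0.0274). Its adjusted p ran up to 0.382, without KO 2, in the other settings. Sort1, the sorting receptor sortilin, gave 173.1, 153.7 and 160.1 across the WT hearts against 178.6, 310.5 and 222.5 in KO, with KO 2 far the highest. Its difference was 0.47 (SE 0.18; limma adjusted p = 0.159). Without KO 2 it was 0.27 (adjusted p = 0.81), while it passed without KO 1 (0.65, adjusted p = 0.044) and with array weights (0.55, adjusted p = 0.0453). Angptl1, a relative of Angptl4, was at -0.31 (SE 0.20) and did not pass.

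Of 11 tested lipoprotein receptors and partners 0 passed in either direction by limma (median -0.047), and 1 lower and 1 higher had an unadjusted p under 0.05. Lrp6, a Wnt coreceptor of the same receptor family as Lrp1, gave 121 to 136.9 in WT and 86.2 to 99.8 in KO, apart but not past the test (-0.40, SE 0.17; limma adjusted p = 0.269), but its other probe set was at 0.25 and the mean of its probe sets at -0.07. Lrp4 was at 0.41 (SE 0.20). Lrpap1, the chaperone of the LRP receptors, was at -0.17 (SE 0.15), with -0.04 without WT 1 and -0.29 without WT 2. Mttp, which loads lipid onto apolipoprotein B, was at -0.20 (SE 0.20), and at 0.03 without WT 1.

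Of 18 tested genes of fatty acid transport, binding and capillary control 0 passed in either direction by limma (median -0.038), and 2 lower and 0 higher had an unadjusted p under 0.05. Fabp3, the fatty acid binding protein of heart muscle, gave 9027.9, 7886.3 and 7948.6 across the WT hearts against 7501.5, 6589.7 and 7099.9 in KO. The groups lay apart by a small difference of -0.23 (SE 0.10; limma adjusted p = 0.254), at a brightness near the top of the array like that of Lpl. Nrp1, a coreceptor for VEGF-B on endothelium, gave 743 to 824.8 in WT and 548.2 to 704.2 in KO (-0.32, SE 0.15; adjusted p = 0.341). The transporter gene Slc27a1 was at -0.27 (SE 0.18), but its other probe set was at 0.10 (SE 0.20) and the mean of its probe sets at -0.09. Leaving out KO 2, WT 1 or WT 3 gave -0.14, -0.15 and -0.42 for Slc27a1. Slc27a5, at a signal of 16.9 or less, was at -0.35 (SE 0.23).

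**Figure D3:**
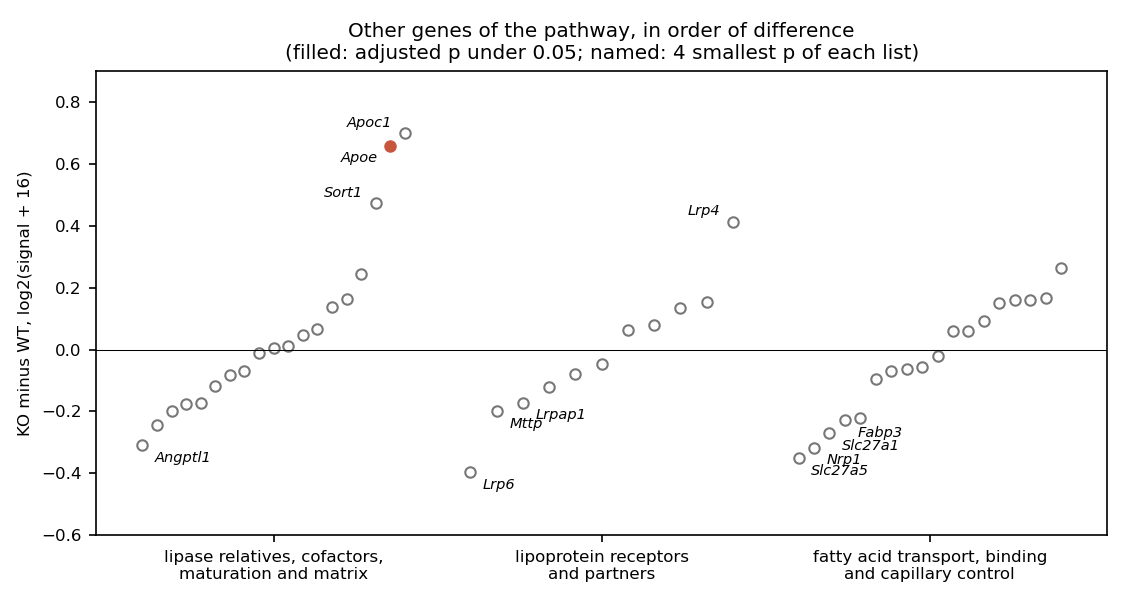
KO minus WT difference on log2(signal + 16) (vertical axis) for the 48 tested genes of the 3 pathway lists, ordered within each list by their difference; the 4 genes of smallest p in each list are named. Only Apoe, the filled point, passed the test, and the differences run from -0.40 to 0.70.

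Several members are also expressed in cells other than cardiomyocytes, so markers of those cells were read in each heart. The 10 cardiomyocyte markers summed to 69980 to 77810 in WT and 67180 to 70560 in KO, and 0 passed by limma (1, lower, at an unadjusted p under 0.05). Of 6 adipocyte markers tested 3 rose, namely Adipoq, Retn and Cidec. The sum over the 7 adipocyte markers on the array was 466.8, 280.6 and 326.8 across the WT hearts against 360.5, 964.2 and 779.7 in KO, with KO 2 and KO 3 above all others and KO 1 within the WT range. Fabp4, a fatty acid binding gene of fat and endothelium named after its values were seen, gave 3322.5 to 4025.1 across the WT hearts against 3467.9, 3255.4 and 4040.2 in KO (difference -0.06, SE 0.11). Leptin gene signal was 6.9 or less in every heart. Adipoq, the adiponectin gene, gave 15.7 to 22.3 in WT and 54, 390.7 and 323 in KO 1 to 3, so that every KO heart, KO 1 included, lay above the WT hearts. In KO 1 most of the adipocyte sum came from Thrsp, at 167.8, and Lipe, at 88.9.

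All 6 atrial markers rose, with sums of 3668, 2922 and 9570 in WT 1 to 3 and 13560 to 16180 in KO. Of 4 smooth muscle markers 2 rose, with sums of 1909, 1505 and 2446 in WT 1 to 3 and 2605 to 4074 in KO, with no overlap. Most of each sum came from Acta2, at 1221.2 to 2037.9 in WT and 2028 to 3732.8 in KO. In KO 3, the highest sum, Myh11 (131.1), Tagln (175) and Cnn1 (34.8) lay within their WT ranges. WT 3, the highest WT heart in the atrial and smooth muscle sums, was also the WT heart nearest to KO for Vldlr (82.2% of the WT mean) and Lrp1 (111%). For Angptl4 the WT heart nearest to KO was WT 1 (72.2%), with WT 3 at 112%. The 8 macrophage markers summed to 1855 to 2801 in WT and 2064 to 2912 in KO, and 0 passed by limma (1, higher, at an unadjusted p under 0.05). Among the KO hearts the macrophage sum was highest in KO 3, as was Apoe, a gene that macrophages and fat also express. In KO 1 the macrophage sum was 2064, below WT 1 (2801) and WT 3 (2263), while its Apoe signal of 1204.5 was above every WT heart. The part of atrial, smooth muscle, macrophage and adipocyte content in the differences of the members and of Apoe was not tested.

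**Figure D4:**
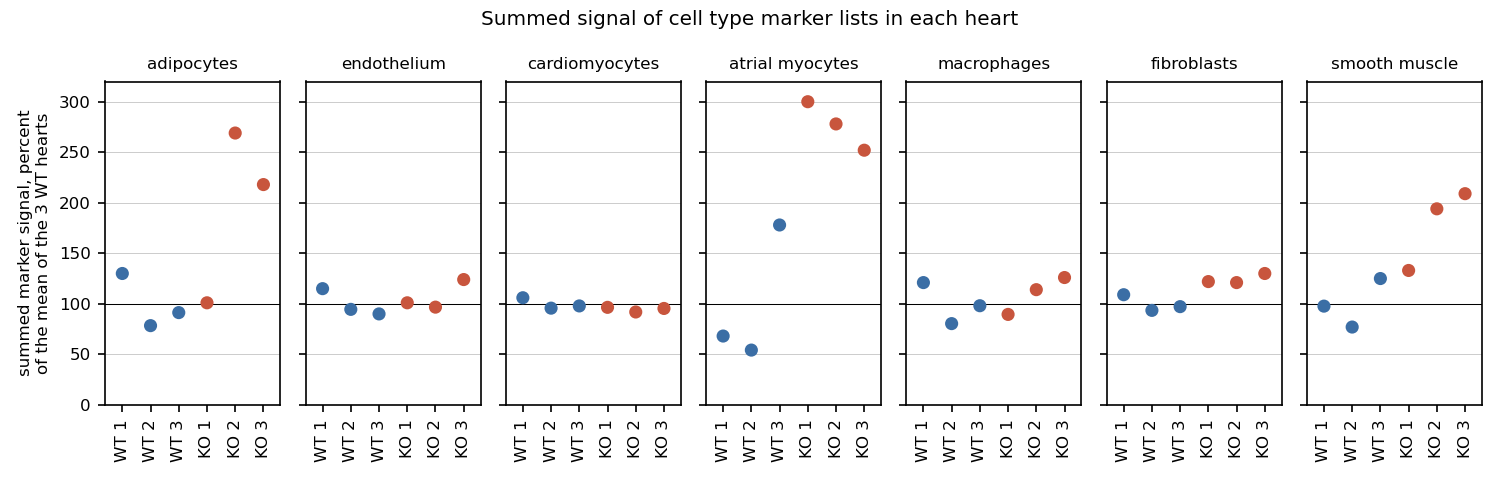
Summed signal of each cell type's marker genes in each heart, as percent of the mean of the 3 WT hearts (vertical axis); each point is 1 heart, blue for WT and red for KO. Atrial sums lie at 252 to 300% in KO, against 68.1, 54.2 and 178% in WT 1 to 3. Fibroblast sums lie at 121 to 130% in KO, while endothelial, cardiomyocyte and macrophage sums overlap between groups.

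For each called member the 5 genes of nearest profile were sought, by the root mean square difference over the 6 hearts of log2(signal + 16) less its WT mean. A smaller value means more alike. Ucp3, a mitochondrial carrier of muscle, was by far the nearest to Angptl4, at 0.0785, with the next, Igsf1, at 0.487, followed by Rasl10b, Vmn1r44 and Scn4b. Ucp3 gave 177.1, 269.2 and 257.4 across the WT hearts against 53.5, 93.4 and 43.8 in KO. As with Angptl4, WT 1 was the lowest WT heart and KO 2 the highest KO heart. Nearest to Vldlr were Cdk18 (0.0539), Dync1li1, Gpt, Art1 and Cecr2. Nearest to Lrp1 were the matrix genes Timp2 (0.0448), an inhibitor of metalloproteinases, and Mfap5 (0.0483), of microfibrils, and then Cd209a, Pla2g4a and Lgi3. Timp2 gave 420.6 to 512.9 across the WT hearts against 595, 730.7 and 865.9 in KO 1 to 3. These genes were picked for likeness, so their differences are a description.

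The order of the KO hearts differed between members. At their brightest probe sets Vldlr and Lrp1 were nearest to WT in KO 1, at 78.3% and 128% of the WT mean. They were farthest there in KO 3, at 53.4% and 185%, whereas Angptl4 was at 19.3% in KO 1 and 20% in KO 3. The order also differed between probe sets of a gene. The second Vldlr probe set to pass was lowest in KO 2 (553.6, 419.6 and 447.2 in KO 1 to 3), while another was lowest in KO 3 (701.3, 570.8 and 503). The dim Lrp1 probe set was farthest from WT in KO 1, at 16.6, 11.3 and 9.9 in KO 1 to 3. Esrra itself stood at 180.1 in KO 1 and 18 in KO 3. No test was made over so few hearts.

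The calls of Vldlr and Lrp1 were lost with no filter on dim probe sets, with the mean of a gene's probe sets in place of the brightest, and with no intensity trend in the fit. That of Apoe was lost with no filter and with no trend. With no filter the calls over all genes were 48 higher and 18 lower.

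**Figure D5:**
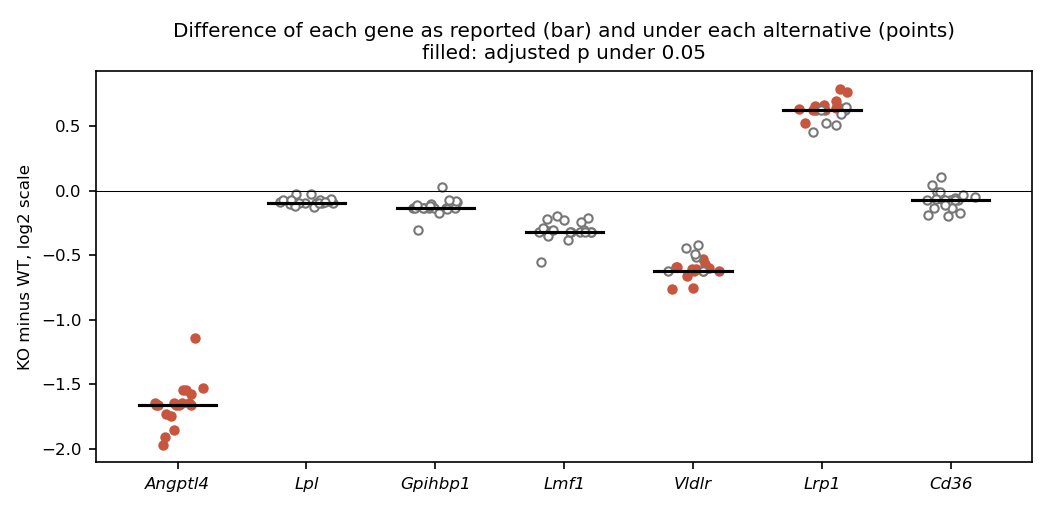
Log2 difference, KO minus WT (vertical axis), of each of the 7 genes as reported (black bar) and under 20 other ways of processing (points; 19 for Angptl4), filled where the gene passed the test. Angptl4 stays between -1.97 and -1.14 and passed in all 19, Vldlr passed in 14 and Lrp1 in 13 of 20, and Lpl, Gpihbp1, Lmf1 and Cd36 passed in none.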

How the data were processed

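Transcript levels were measured in 6 mouse hearts, 3 labelled WT and 3 labelled KO, on 1 array each. For each probe set the authors deposited a MAS5 intensity (a signal on a linear scale), per the submitters' processing notes. The sources used here name no scaling target and no detection calls, and no further scaling was applied. Of 45099 probe sets 34958 had 1 symbol in the platform table, 932 several, and 62 were controls. Signals were taken as log2(signal + 16). Probe sets with a mean at or above the 40th percentile (a signal of 8.17) were kept, and the brightest one stood for its gene, which left 12946 genes; 27022 probe sets were tested in a fit of their own. The test of KO against WT was limma's (version 3.58.1, under R 4.3.3), fitted by lmFit and moderated by eBayes along the mean intensity. It was two-sided with Benjamini-Hochberg adjustment, and its script was checked on simulated data. The prior carried 45.6 degrees of freedom, so p-values rest largely on variance shared between genes. It carried 7.14 without WT 1, 110 without WT 3, and infinite degrees of freedom without WT 2, KO 1, KO 2 or KO 3. A call lost or gained with a heart left out therefore mixes the change of prior with the absence of that heart.

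The members, lists and rules were chosen with earlier results of these data known. Named were the 7 members, Esrra, in each of 3 pathway lists every gene past the threshold and the 4 of smallest p, and the 5 genes nearest in profile to each called member, skipping clone and predicted names. Same-numbered hearts are not said to be paired. Alternatives were pseudocounts of 1 and 64, quantile, median, cyclic loess and trimmed-mean scaling, no filter and a 60th percentile filter, other readings of probe sets, no trend, a replicate block, weights per array, and fits that left hearts out.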

Additional observations from a re-analysis of the deposited data

How the results depend on the processing

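The fall of Angptl4 kept its direction and passed in all 19 alternatives that could test it; without shared-probe sets the one left to Angptl4 was too dim to test. Lpl, Lmf1, Gpihbp1 and Cd36 passed in none of 20, and the direction turned for Gpihbp1 without KO 2 (0.0299; -0.304 without KO 3) and for Cd36 without WT 1 (0.0412) and KO 2 (0.103; -0.171 without KO 1). Vldlr lost its call with no filter (-0.62, adjusted p = 0.147), the mean of probe sets (-0.446), no shared-probe sets (-0.42) and no intensity trend (-0.62), and lay between -0.762 and -0.489 with single hearts left out. Lrp1 lost it with no filter (0.623, adjusted p = 0.14), the mean of probe sets (0.452) and no trend (0.623), and lay between 0.513 and 0.764 with single hearts left out. Members called lower were 1 with no filter, the mean of probe sets or no trend and 0 without shared-probe sets (1 to 2 with hearts left out). Members called higher were 0 with no filter, the mean of probe sets or no trend (0 to 1). Of the pathway lists 0 genes were called higher with no filter or without shared-probe sets, 3 with array weights and 2 without both first hearts, a setting chosen after seeing the data, as was trimmed-mean scaling (0 to 2 with single hearts left out). Without shared-probe sets Apoe was not tested, since its only probe set was among those removed. Mttp turned to 0.0276 without WT 1 and was -0.325 without WT 2. Esrra did not pass without WT 1 (-2.59, SE 0.58, adjusted p = 0.07), at nearly the same difference as in the full fit (-2.58, SE 0.283).

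Over all genes 48 were higher and 18 lower with no filter, 114 and 57 with no trend, 434 higher with array weights, and 410 higher without both first hearts, against 231 and 153; leaving out single hearts gave 103 to 299 and 19 to 209. The share of called genes that were higher, 60.2%, was 72.7% with no filter, 71.1% with array weights and 71.4% without both first hearts. It was 84.4% without WT 1. The median of all genes stayed within 0.1 of 0 in every setting. With the replicate block 2 members were lower and 1 higher; correlations of deviations between same-numbered hearts were 0.0266, -0.0165 and 0.0288, so the numbers were not taken as pairs, and the block changed no member's call. The causes of these changes were not tested. Detection calls were not used here, so a signal near the filter cannot be told from background.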
